A study of Mus musculus with 6 samples.

Results

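Aminoacyl-tRNA synthetases were followed in the wasting hind limb muscle of tumor-bearing mice. The 38 genes were chosen by their symbols, which name the enzymes by the letter of their amino acid followed by ars, together with Aimp1 and Aimp2, which encode scaffold proteins that hold several of the enzymes together. They were 38 of 21212 probe sets, of which 18782 carried a gene symbol of their own. The rule reads symbols and no measured values. Of these, 20 encode cytosolic enzymes, 16 mitochondrial enzymes and 2 scaffolds. The cytosolic Gars and Kars proteins also serve mitochondria, and Tarsl2, whose symbol ends in 2, is not a mitochondrial enzyme and was counted with the cytosolic group.

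Gene expression was measured on 6 arrays of gastrocnemius and plantaris muscle from male CDF1 mice, 8 weeks old at purchase. C26 mice carried tumors grown from C26 colon adenocarcinoma cells, placed under the skin of both flanks in saline and matrigel, and control mice were given the saline and matrigel without cells. Muscles were taken at day 25, and the 3 control and 3 C26 arrays were each made from a pool of RNA from 2 to 3 muscles. The labels number the control pools 1, 2 and 3 and the C26 pools 1, 3 and 4. The muscles came from 3 control and 4 C26 mice, so pools of a group may share an animal, and p-values measure only the spread between pools. All values below are log2 expression values, and differences are C26 minus control. A gene rose or fell, as the words are used here, where it passed limma with a Benjamini-Hochberg adjusted p of at most 0.05 over all probe sets and changed at least 1.5-fold, which is 0.585 on the log2 scale. Array medians lay between 4.93 and 5.02, and arrays correlated at 0.994 to 0.996 within groups and at 0.976 to 0.981 between them.

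Each synthetase except that of Eprs, which serves glutamate and proline, joins 1 kind of amino acid to the tRNAs that read its codons. The charged tRNAs then feed the ribosome. Most amino acids have separate enzymes for the cytosol and for mitochondria, all encoded in the nucleus, and several cytosolic enzymes sit in a large multisynthetase complex built on scaffolds that include the products of Aimp1 and Aimp2. When charged tRNA runs short, uncharged tRNA activates the kinase Gcn2, and translation of the transcription factor ATF4 increases. Genes for many cytosolic synthetases are known targets of ATF4, which binds with C/EBP proteins to a composite element whose core is written TGATGNAA.

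All 38 members were above background, set at 3.82 as the 95th percentile of 1259 olfactory and vomeronasal receptor probe sets, genes used mainly by sensory neurons of the nose. Among them 3 genes rose in C26 muscle, Vars, Eprs and Iars, beside a share of 5.94% of all probe sets that rose. A single member, Aimp2, fell, beside 4.95% of all probe sets. On the adjusted p alone 14 members were higher, against 14.3% of all probe sets, and 7 were lower, against 15.8%. In whole muscle, fewer cells of a type and less RNA per cell cannot be told apart.

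**Figure D1:**
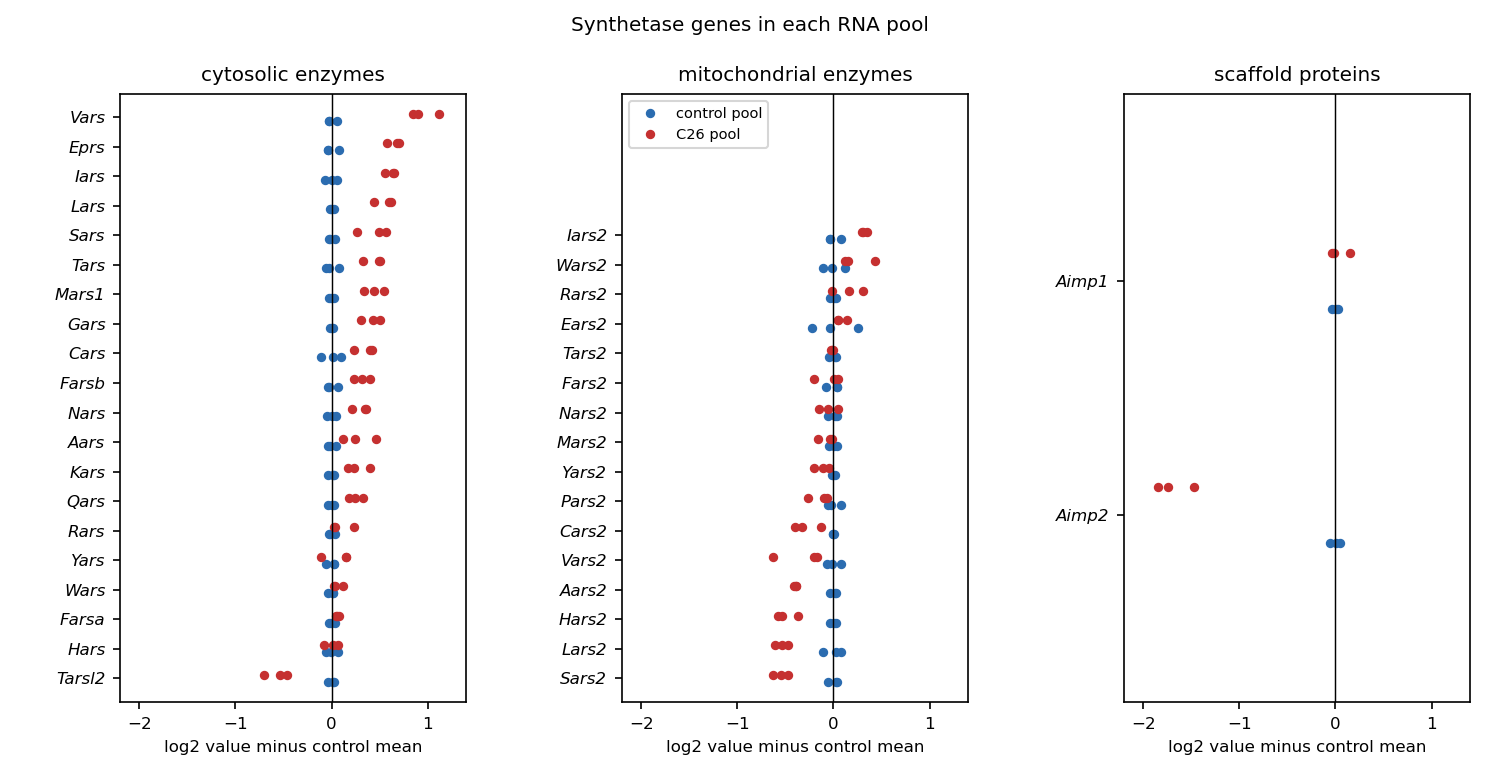
Log2 value of each member in each RNA pool, as its distance from the control mean of that gene (x axis), for cytosolic enzymes, mitochondrial enzymes and scaffolds (y axis, genes ordered by change); each point is 1 of 3 control (blue) or 3 C26 (red) pools. The C26 points of most cytosolic genes lie right of the control points, those of several mitochondrial genes lie left, and Aimp2 is farthest left at -1.69 in the mean.

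The promoter letters that bear on these genes are shown first. The RefSeq promoter table (GRCm38.p6) holds windows from 250 bases before to 50 bases after the gene start for 13 of the 20 cytosolic and 14 of the 16 mitochondrial enzyme genes. No window was read for Vars, Lars, Cars, Nars, Rars, Wars, Hars, Pars2 and Hars2. The element TGATGNAA, searched on both strands, lay in 5 of the 13 cytosolic windows (38.5%) and in 0 of the 14 mitochondrial ones, and 4.51% of 27025 genes with a window held it. A match is printed for each of these genes because it marks the cytosolic genes that carry the letters of the ATF4 element, with the element in capitals, read as its reverse complement where it lies on the other strand, and each line 5′ to 3′ on the gene's own strand:
Iars, chr13:49682126-49682155, plus strand: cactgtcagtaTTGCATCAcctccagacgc
Tars, chr15:11399655-11399684, minus strand: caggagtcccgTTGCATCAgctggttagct
Gars, chr6:55037960-55037989, plus strand: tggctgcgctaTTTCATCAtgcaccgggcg
Aars, chr8:111033840-111033869, plus strand: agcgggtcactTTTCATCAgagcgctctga
Yars, chr4:129189895-129189924, plus strand: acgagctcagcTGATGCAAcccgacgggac

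The E-box CACGTG, also searched on both strands and sharing no letters with these matches, lay in the windows of Aars, Farsb, Iars and Tars among the cytosolic genes (4 of 13, 30.8%) and of Ears2 alone among the mitochondrial genes (7.14%), beside 8.09% of all genes. Among the 9 cytosolic genes with a window that were higher on the adjusted p, 3 held TGATGNAA (Iars, Tars and Gars), and among the other 4 with a window 2 held it (Aars and Yars). The match is a description of letters and was not read as a bound site.

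Vars, which encodes the valyl enzyme, had the largest increase of the members. Its values were 7.40, 7.41 and 7.49 in control pools 1, 2 and 3 and 8.33, 8.55 and 8.28 in C26 pools 1, 3 and 4. Every C26 pool was above every control pool, and the level was 1.94-fold higher in C26 (log2 difference 0.95 ± 0.09 SE, n = 3 a group, limma adjusted p = 0.000114). Eprs encodes the single protein that charges both glutamyl and prolyl tRNAs, and its values were 9.15, 9.04 and 9.03 in control and 9.65, 9.77 and 9.75 in C26. Its groups did not overlap either, with a log2 difference of 0.65 ± 0.08 SE (n = 3 a group, limma adjusted p = 0.000371). Iars, the isoleucyl enzyme, lay at 8.36, 8.43 and 8.48 in control and at 8.98, 9.07 and 9.07 in C26. The difference of 0.62 ± 0.08 SE (n = 3 a group, limma adjusted p = 0.00043) was near the fold minimum, and the call was lost with quantile normalization (0.52), with cyclic loess (0.58) and without control pool 1 (0.58). Among the 1261 probe sets that rose, Vars stood at rank 471, Eprs at 1040 and Iars at 1140 by size.

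Lars, the leucyl enzyme, lay just inside the fold minimum. Its values were 6.92, 6.88 and 6.89 in control and 7.34, 7.49 and 7.52 in C26, again without overlap. Its log2 difference was 0.55 ± 0.08 SE (n = 3 a group, limma adjusted p = 0.00102), and it passed the fold minimum with median centring (0.62) and without C26 pool 1 (0.61). Another 9 cytosolic genes were higher on the adjusted p alone, with differences from 0.25 to 0.44. In order of size these were Sars (seryl, 0.44), Tars (threonyl, 0.44), Mars1 (methionyl, 0.44), Gars (glycyl, 0.41), Cars (cysteinyl, 0.35), Farsb (one chain of the phenylalanyl enzyme, 0.32), Nars (asparaginyl, 0.30), Kars (lysyl, 0.27) and Qars (glutaminyl, 0.25).

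In total 13 of the 20 cytosolic genes were higher on the adjusted p, beside 14.3% of all probe sets, 1 was lower, beside 15.8%, and 6 did not pass. The median difference of the 20 was 0.31, beside -0.05 over all probe sets, and 19 of the 20 estimates were above 0. The median distance from the control mean was 0.23 in C26 pool 1, 0.38 in pool 3 and 0.40 in pool 4, so each C26 pool showed the direction. In 16 genes every C26 pool was above every control pool, beside 19.3% of all probe sets, and in 1 gene every C26 pool was below, beside 24.6%. The count of 13 was 8 without C26 pool 3 and 4 with a test that lets the variances differ. It was 14 with an intensity trend in limma, with the filter on dim probe sets and with median centring. Shares of all probe sets on the adjusted p alone were not counted for these alternatives.

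The cytosolic genes that did not pass were Aars (alanyl, 0.28, adjusted p = 0.0667 by limma), Rars (arginyl, 0.10), Yars (tyrosyl, 0.06), Wars (tryptophanyl, 0.06), Farsa (the other chain of the phenylalanyl enzyme, 0.06) and Hars (histidyl, 0.00). Aars passed the adjusted p with the intensity trend, with the filter on dim probe sets, with median centring and without C26 pool 4. The signs of Wars and Hars were not stable. Hars was negative with quantile normalization (-0.018) and cyclic loess (-0.028), and Wars with quantile normalization (-0.015). Both chains of the phenylalanyl enzyme are needed for its activity, and Farsb and Farsa lay at 0.32 ± 0.08 and 0.06 ± 0.07 (SE) respectively, a difference between genes that was not tested.

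Tarsl2, which encodes a further cytosolic threonyl enzyme, moved the other way from Tars. Its values were 8.07, 8.08 and 8.02 in control and 7.53, 7.60 and 7.35 in C26. No pools overlapped, and the log2 difference was -0.57 ± 0.09 SE (n = 3 a group, limma adjusted p = 0.00131), just inside the fold minimum. It passed that minimum with quantile normalization (-0.64), with cyclic loess (-0.61) and without C26 pool 3 (-0.62). Tars itself lay at 6.50, 6.64 and 6.53 in control and at 6.88, 7.05 and 7.06 in C26.

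**Figure D2:**
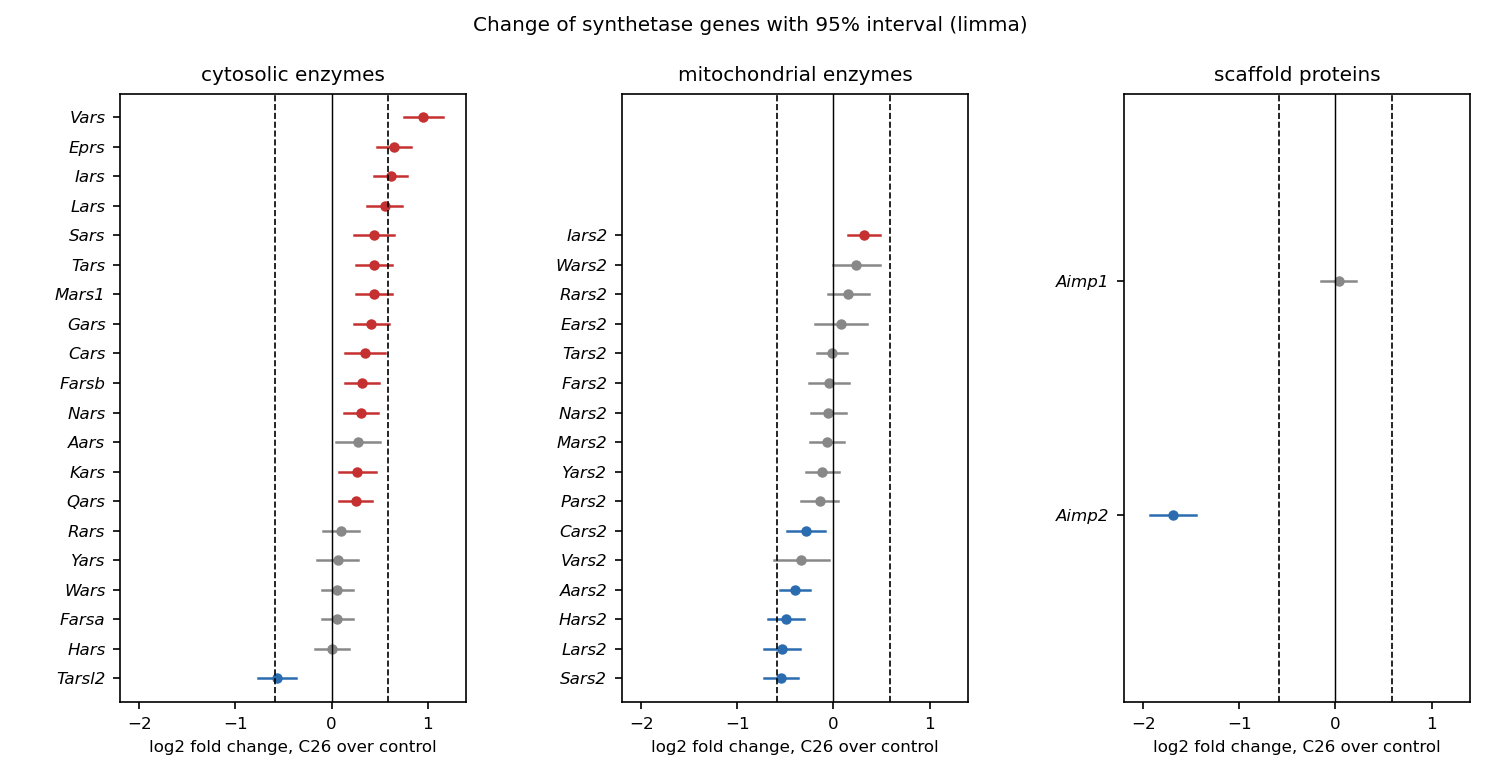
Log2 fold change, C26 over control (x axis), with its 95% limma interval for each member (y axis); red and blue mark genes higher and lower on the adjusted p, grey those that did not pass, and dashed lines the 1.5-fold minimum. Only Vars, Eprs, Iars and Aimp2 lie past a dashed line with their point estimate.

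None of the 16 mitochondrial enzyme genes rose and none fell by limma at both thresholds. At an unadjusted p under 0.05 limma had 1 higher and 6 lower, beside 3785 higher and 4677 lower of 21212 probe sets. The tests with equal and with unequal variances also called 0 in each direction at both thresholds. On the adjusted p alone 1 was higher, beside 14.3% of all probe sets, 5 were lower, beside 15.8%, and 10 did not pass. The median difference was -0.09, beside -0.05 over all probe sets. Those lower were Sars2 (seryl), Lars2 (leucyl), Hars2 (histidyl), Aars2 (alanyl) and Cars2 (cysteinyl).

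Sars2 lay nearest to the fold minimum, at 7.10, 7.09 and 7.00 in control and at 6.43, 6.52 and 6.59 in C26. The pools did not overlap, and the difference was -0.55 ± 0.08 SE (n = 3 a group, limma adjusted p = 0.000949), reaching the minimum without C26 pool 4 (-0.59). Lars2 was 6.64, 6.51 and 6.70 in control and 6.08, 6.01 and 6.14 in C26, also without overlap. Its difference was -0.54 ± 0.08 SE (n = 3 a group, limma adjusted p = 0.00149), and it reached the minimum without control pool 2 (-0.59). Hars2 (-0.49), Aars2 (-0.40) and Cars2 (-0.29) followed, and Vars2, the valyl enzyme, at -0.33 did not pass (limma adjusted p = 0.0801), with C26 pool 4 at 5.58 and the other C26 pools at 6.04 and 6.01.

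Iars2, the mitochondrial isoleucyl enzyme, was the gene that was higher. Its values were 7.31, 7.20 and 7.20 in control and 7.54, 7.58 and 7.53 in C26, with every C26 pool above the control pools. The difference was 0.32 ± 0.07 SE (n = 3 a group, limma adjusted p = 0.0115). The remaining mitochondrial genes, none of which passed, lay between -0.14 (Pars2, prolyl) and 0.24 (Wars2, tryptophanyl). In 8 mitochondrial genes all C26 pools were below all control pools, beside 24.6% of all probe sets, and in 1 all were above, beside 19.3%. The median distance from the control mean was -0.13, -0.12 and -0.09 in C26 pools 1, 3 and 4.

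Synthetases fall into class I and class II, which differ in the fold of their catalytic domain. Within the cytosolic group the 9 class I genes had a median difference of 0.35 and the 10 class II genes 0.29, with Eprs, which has a domain of each, counted in neither. In the mitochondrial group the medians were -0.07 for 9 class I genes and -0.14 for 7 class II genes, all 7 of them below 0, although the sign of Tars2, Fars2 and Nars2 turned with median centring (0.048, 0.016 and 0.013).

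The difference between compartments was then taken gene by gene, as the log2 value of the cytosolic gene minus that of its mitochondrial partner on the same array. This ratio has no meaning as a level, because the genes are read by different probes, but its change between groups equals the difference of the changes of the partners. There were 17 pairs, with Eprs and Fars2 each standing in 2 of them. The ratio had a higher mean in C26 in 15 pairs, and in 13 of them all C26 pools were above all control pools. The share among pairs of other genes was not counted, and among single probe sets it was 19.3% above and 24.6% below. None of the 17 pairs had all C26 pools below. The median change was 0.50, and with 3 against 3 pools the two-sided exact permutation test cannot go below p = 0.1, so no pair could pass 0.05. The smallest p obtained after adjustment over the 17 pairs was 0.131.

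The largest change was that of Vars over Vars2, 1.29 ± 0.14 SE, which is a 2.44-fold change of the ratio (n = 3 a group, exact permutation p = 0.1). Lars over Lars2 followed at 1.09 ± 0.08 SE and Sars over Sars2 at 0.99 ± 0.07 SE (n = 3 a group, exact permutation p = 0.1 for each). In Lars, Sars and Cars (ratio change 0.64 for Cars) the cytosolic gene was higher and the mitochondrial gene lower on the adjusted p. Hars over Hars2 (0.50) differed through the mitochondrial gene, since Hars lay at 0.00, while Iars over Iars2 (0.30) had both partners higher. The ratios of Wars, Rars, Yars and Farsa to their partners overlapped between groups, with changes of -0.18, -0.06, 0.18 and 0.11.

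**Figure D3:**
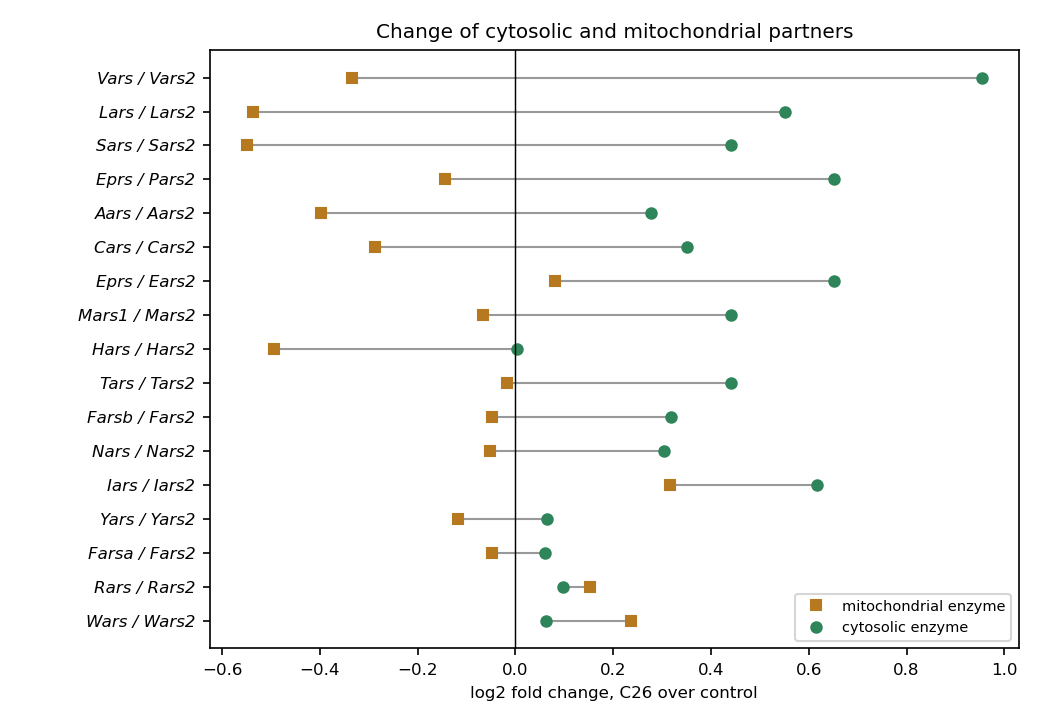
Log2 fold change, C26 over control (x axis), of the cytosolic (green circle) and mitochondrial (brown square) enzyme gene for each of 17 pairs (y axis), joined by a line and ordered by the difference. The cytosolic point lies right of the mitochondrial one in 15 pairs, with the widest gap for Vars and Vars2.

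Aimp2 encodes a scaffold on which the multisynthetase complex is assembled. Its values were 9.53, 9.57 and 9.46 in control and 8.05, 7.68 and 7.78 in C26. All C26 pools lay far below the control pools, with a 3.22-fold lower level (log2 difference -1.69 ± 0.10 SE, n = 3 a group, limma adjusted p = 1.49e-05). It ranked 69 by size among the 1049 probe sets that fell. Aimp1, the partner scaffold, was 7.27, 7.21 and 7.24 in control and 7.20, 7.23 and 7.39 in C26, overlapping between groups (0.03 ± 0.08 SE, n = 3 a group, limma adjusted p = 0.798). Eef1e1, which encodes the third scaffold component and is no member by symbol, had a difference of -0.13 ± 0.09 SE (n = 3 a group, limma adjusted p = 0.307).

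The 7 measured enzymes that sit in the complex all had estimates above 0. Eprs and Iars rose, Lars, Mars1, Kars and Qars were higher on the adjusted p alone, and Rars did not pass. Their median difference was 0.44. Among the 13 cytosolic enzymes outside the complex 7 were higher and 1 lower on the adjusted p, with a median of 0.30. Over all probe sets 5.94% rose, 14.3% were higher and 15.8% lower on the adjusted p, and the median was -0.05.

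In the RefSeq promoter table the start of Aimp2 faces away from that of Pms2, a DNA mismatch repair gene, with 162 bases from one start to the other. The 161 bases between the starts are printed because both genes were lower in C26. They lie at chr5:143909840-143910000 (GRCm38.p6), with no part marked because neither motif lies in them. Read 5′ to 3′ on the minus strand, the strand of Aimp2, the line begins beside the start of Pms2 and ends beside that of Aimp2. Its label names both genes and not the order of reading:
Aimp2 to Pms2: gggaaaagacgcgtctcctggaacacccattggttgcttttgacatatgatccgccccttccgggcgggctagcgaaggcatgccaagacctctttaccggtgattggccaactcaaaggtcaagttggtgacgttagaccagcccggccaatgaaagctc

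Pms2, chosen for its position, lay at 6.23, 5.75 and 5.86 in control and at 5.23, 5.00 and 4.84 in C26. It fell by 0.92 ± 0.14 SE on the log2 scale without overlap (n = 3 a group, limma adjusted p = 0.00156). Eif2ak1, a kinase of the integrated stress response whose end overlaps that of Aimp2 in the RefSeq gene table, had a difference of 0.30 ± 0.10 SE and did not pass (n = 3 a group, limma adjusted p = 0.0601).

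The genes around tRNA charging were counted with the same test, by which 5.94% of all probe sets rose and 4.95% fell, and 14.3% were higher and 15.8% lower on the adjusted p alone. Of 10 measured partners and proofreading factors of the synthetases 1 rose, Trnt1, which adds the CCA end to tRNAs (0.73 ± 0.11 SE, limma adjusted p = 0.00156), a call lost with unequal variances, and the median was -0.01. Of 56 genes of tRNA processing and modification 8 rose and 19 were higher and 3 lower on the adjusted p, with a median of 0.12. The largest rises were those of Trmt1 (1.18), which methylates guanosine in tRNA, Cdkal1 (1.03), which thiolates a base beside the anticodon, Rpp38 (0.87), a subunit of RNase P, and Mettl1 (0.86), which makes 7-methylguanosine. The count of 8 was 3 with unequal variances, and Cdkal1 was 8.37 in C26 pool 1 against 9.14 and 9.16 in the others.

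Of 19 mitochondrial factors for tRNA charging and translation 1 rose, Elac2 (0.66), which trims tRNA ends, and 1 fell, Qrsl1. Over all probe sets 5.94% rose and 4.95% fell. Qrsl1 encodes a subunit of the amidotransferase that makes glutaminyl-tRNA in mitochondria, which lack a glutaminyl synthetase of their own. Its values were 7.09, 6.80 and 6.67 in control and 5.94, 5.88 and 6.04 in C26, a difference of -0.90 ± 0.11 SE (n = 3 a group, limma adjusted p = 0.000519). The median of the 19 was -0.06, near that of all probe sets, and neither call was made with unequal variances. On the adjusted p alone 3 of the 19 were higher, beside 14.3% of all probe sets, and 6 were lower, beside 15.8%. Of 11 cytosolic elongation and termination factors Etf1, the release factor, rose (0.60), with a median of 0.03, and this call was lost with quantile normalization, with cyclic loess and without control pool 2, control pool 3 or C26 pool 3.

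Of 14 regulators of the integrated stress response 6 rose, beside 5.94% of all probe sets, and the median was 0.41. On the adjusted p 9 were higher, beside 14.3%. Atf4 was 7.55, 7.53 and 7.40 in control and 8.35, 8.50 and 8.38 in C26. Its pools did not overlap, and it rose by 0.92 ± 0.08 SE (n = 3 a group, limma adjusted p = 8.2e-05). The largest rise was that of Ppp1r15a (1.90), the phosphatase subunit that reverses eIF2 phosphorylation, followed by Impact (1.28), an inhibitor of Gcn2. Eif2b1 (0.76), a subunit of the exchange factor for eIF2, rose too.

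Among 30 known ATF4 targets other than synthetases, 7 rose and 2 fell, beside 5.94% and 4.95% of all probe sets, and the median was 0.07. The rise was largest for Eif4ebp1, which holds back cap-dependent translation and went from 8.25, 8.20 and 8.46 to 10.72, 10.72 and 10.86. Chac1 (1.97), which degrades glutathione, Stc2 (1.93), a secreted glycoprotein, and Ddit4 (1.75), an inhibitor of mTORC1, also rose. The genes that fell were Psph (-0.67), of serine synthesis, and Aldh1l2 (-0.61), of mitochondrial folate metabolism. With unequal variances 2 rose and 1 fell, and 1 fell with median centring, quantile normalization, cyclic loess or without control pool 3. The promoter windows of 10 of 26 of these genes (38.5%) held TGATGNAA, the same share as in the cytosolic synthetases.

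Wars is also known as a target of interferon gamma, and its values were 7.77, 7.78 and 7.72 in control and 7.79, 7.79 and 7.88 in C26. Of 13 other genes of that response 1 fell, beside 4.95% of all probe sets, and 4 were lower on the adjusted p, beside 15.8%. The gene that fell was Gbp3, a GTPase, whose C26 mean was under background, as was that of Gbp5. Of the 13 genes 9 were above background in at least 1 group. Cxcl9, Cxcl10, Ciita and Ido1 were under it in both groups. The call of Gbp3 was lost with equal or unequal variances and without control pool 3, C26 pool 3 or C26 pool 4. The median of the 13 was -0.12.

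**Figure D4:**
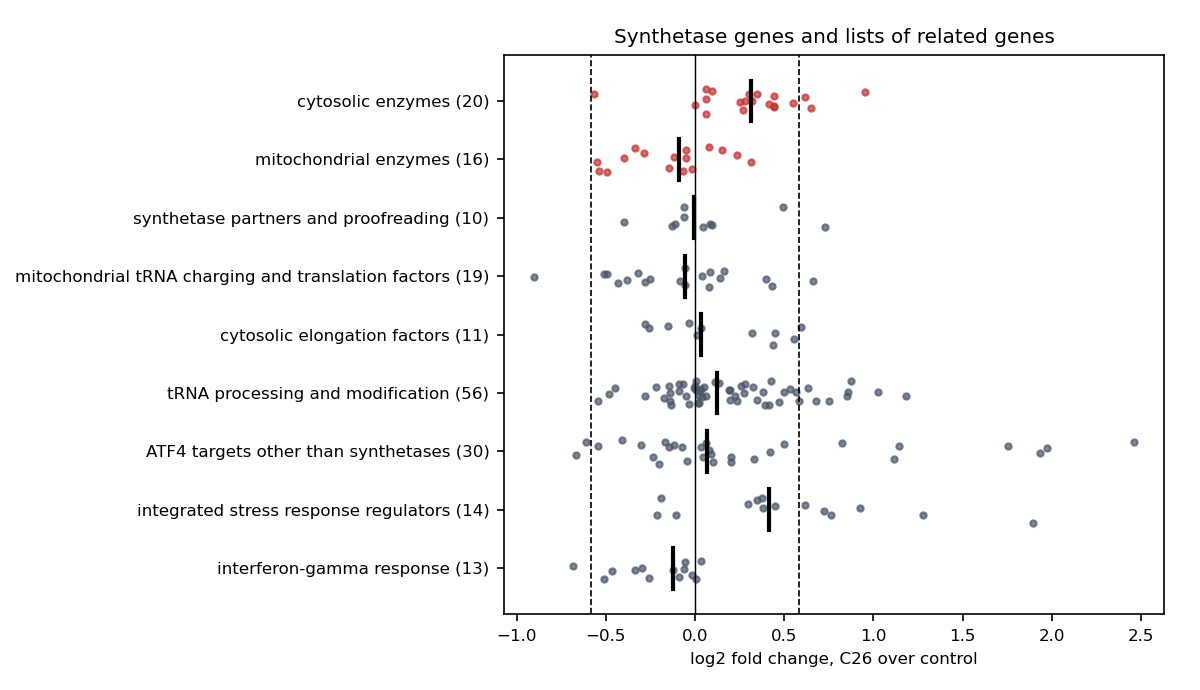
Log2 fold change, C26 over control (x axis), of each gene (point) of the cytosolic and mitochondrial enzyme groups (red) and of 7 lists of related genes (grey), with the number of genes in brackets; thick bars are medians and dashed lines the 1.5-fold minimum. The medians of the cytosolic enzymes (0.31) and the stress response regulators (0.41) lie highest.

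Markers of other cells moved with the groups. Of 7 macrophage markers 4 rose (Itgam, Cd163, Mrc1 and C1qa) while Adgre1 and Csf1r lay at 0.00 and 0.02, and their log2 summed level was 9.43 to 9.54 in control and 10.10 to 10.14 in C26. Of 8 neutrophil markers 5 rose, beside 5.94% of all probe sets. Among them Cxcr2, S100a8 and Retnlg were under background in control and Ngp in both groups. Of the others, all under background in both groups, Ltf (0.28) was higher on the adjusted p alone, and Camp (0.02) and Mpo (-0.09) did not pass. The summed neutrophil level was 6.16 to 6.36 in control and 7.35 to 7.66 in C26. Skeletal muscle markers were present at a summed level of 15.22 to 15.27 in control and 15.08 to 15.15 in C26. Of these 8, Mylpf fell (-0.70), and on the adjusted p alone Pvalb was lower (-0.51) and Des higher (0.29). In 5 of the 8 all C26 pools were below all control pools, beside 24.6% of all probe sets. No lymphocyte or tumor epithelium marker was called by limma at both thresholds. Only 2 of 6 lymphocyte and 5 of 7 epithelial markers were above background in at least 1 group. At an unadjusted p under 0.05 by limma, 1 of 6 and 3 of 7 were lower, beside 4677 of 21212 probe sets. Epcam and Vil1, another epithelial marker, were under background in both groups. The summed epithelial level was 7.30 to 7.43 in control and 7.16 to 7.22 in C26. The part of immune cells in the changes of the synthetase genes was not tested.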

How the data were processed

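Whole-transcript Mouse Gene 1.0 ST arrays were used, with RNA integrity numbers of at least 8.0. The deposited log2 values had been produced by the authors with RMA in GenePattern and the Brainarray custom CDF, version 13, in which a probe set stands for 1 gene. RMA subtracts background, normalizes by quantiles and summarizes probes, which sets the arrays on 1 scale and can compress differences of dim genes. The sources used here do not name the genome build of the probes. The number of arrays limits the precision.

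Gene names came from the platform annotation, which left 2420 probe sets unnamed, and 18771 were found in a RefSeq gene table (GRCm38.p6). A linear model with moderated variances (limma 3.58.1 under R 4.3.3, prior degrees of freedom 4.52) gave two-sided p-values for C26 against control, adjusted by Benjamini-Hochberg over the 21212 probe sets. This was checked on simulated data. Exact permutation tests, counts and promoter searches used Python 3.11.15 with SciPy 1.17.1. The members and gene lists were chosen with earlier results of these data known, and no list was tested as a set. All members could be named. Values in every pool were given for members past both thresholds or nearest to the fold minimum and for a few others, chosen after their values were seen, and from each list up to 4 genes with the largest change past both thresholds, Atf4 and Eef1e1 were named. Other list genes were named with the markers.

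The alternatives were tests with equal and unequal variances, no fold minimum, limma with an intensity trend or robust eBayes, a filter on dim probe sets, median centring, quantile normalization, cyclic loess, a block on the replicate number, and the omission of single arrays. A planned comparison of protein sequences was not made. Some items are not reported here.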

Additional observations from a re-analysis of the deposited data

How the results depend on the processing

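The 13 pairs whose ratio was higher in every C26 pool were 13 to 14 when 1 array was left out. Leaving out an array can only keep or add such pairs, so this range is no check on them. Aimp2 passed under every alternative run and ranged from -1.79 to -1.61 when 1 array was left out. With unequal variances, 760 of all 21212 probe sets rose and 621 fell at both thresholds, and of the 20 cytosolic enzymes 3 rose and 0 fell. On the adjusted p alone the cytosolic enzymes had 4 higher and 0 lower and the mitochondrial enzymes 0 higher and 3 lower. The share of all probe sets on the adjusted p alone was not counted with unequal variances, so these counts stand without a background. With that test the ATF4 targets had 2 risen and 1 fallen, tRNA processing 3 risen, and the partners, the mitochondrial factors (both directions) and the interferon response (fallen) 0. With equal variances the interferon response had 0 fallen. With no fold minimum all probe sets had 3041 higher and 3344 lower, members 14 and 7, cytosolic enzymes 13 and 1, mitochondrial enzymes 1 and 5, partners 2 and 1, mitochondrial factors 3 and 6, elongation factors 4 and 1, and tRNA processing 19 and 3, while ATF4 targets and the interferon response had 4 lower each. Median centring gave medians of 0.38 for the cytosolic and -0.027 for the mitochondrial enzymes, 2 elongation factors risen and 1 ATF4 target fallen. Quantile normalization gave a cytosolic median of 0.22. Quantile normalization and cyclic loess each gave 2 members fallen, 1 of them cytosolic, 1 ATF4 target fallen and 0 elongation factors risen. The median change of all probe sets ranged from -0.05 to 0.02 over the scalings.

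Pool numbers 1 and 3 occur in both groups, but their deviations correlated at -0.061 and -0.057, so nothing shows that the numbers pair samples. With the replicate number as a block, 6 cytosolic enzymes were higher on the adjusted p, and mitochondrial enzymes had 0 higher and 3 lower. At both thresholds 2 members fell, 1 of them mitochondrial, and elongation factors and the interferon response had 0 calls. Counts over all probe sets at both thresholds stayed near the 1261 risen and 1049 fallen of the main test. The share of all probe sets on the adjusted p alone was not counted with the block. The change from 13 to 6 cytosolic enzymes therefore cannot be told from a general loss of calls. When 1 array was left out, 1196 to 1391 of all probe sets rose and 992 to 1155 fell at both thresholds. Members that fell then numbered 1 to 2, cytosolic enzymes that fell 0 to 1 and mitochondrial enzymes that fell 0 to 1. Elongation factors that rose numbered 0 to 2, tRNA processing genes that fell 0 to 1, ATF4 targets that fell 1 to 3 and interferon response genes that fell 0 to 2. Cytosolic enzymes higher on the adjusted p numbered 8 to 13, a range without a background, since that share of all probe sets was not counted.

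Estimates that changed sign, none of them past the test, were Hars (-0.018 with quantile normalization, -0.028 with cyclic loess, -0.059 with the block, and -0.029 to 0.041 when 1 array was left out), Aimp1 (-0.023, -0.0092, -0.041, and -0.025 to 0.068 in the same order), Wars (-0.015 with quantile normalization), Yars (-0.0078 with the block), Ears2 (-0.031 to 0.21) and Fars2 (-0.099 to 0.028) when 1 array was left out, and Fars2 (0.016), Nars2 (0.013) and Tars2 (0.048) with median centring. The cause of these differences was not tested.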
